A study of Mus musculus with 6 samples.

Results

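The sarcoglycans, sarcospan and dystroglycan are the membrane-spanning proteins of the dystrophin complex of muscle, and 6 of their genes were followed here: Sgca, Sgcb, Sgcd, Sgce, Sspn and Dag1. Each was taken by its symbol, where the array's annotation gave exactly 1 gene symbol for a transcript cluster, and each was measured by a single cluster. These 6 genes were 6 of 30063 named genes. All 6 passed into every fit, since no gene was left out for low signal in the main test. The measured material was heart ventricle of 6 male mice, 20 weeks old, each on its own Affymetrix array. In the finerenone group, 3 mice had eaten chow with 100 ppm of the drug, a non-steroidal blocker of the mineralocorticoid receptor, from 4 weeks of age. The 3 untreated mice ate that chow without drug. Both groups had the same genotype on the C57BL/10 background: mdx, which lacks dystrophin, together with utrn+/-, that is, 1 working utrophin allele.

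No dystrophin-sufficient mice were analysed here, so the values compare treated with untreated dystrophic hearts and do not place either against a healthy heart. The mice are labelled biological replicates, and the labels do not say whether littermates or cages were shared. The question behind the comparison is whether transcripts of this complex differ in dystrophic ventricle when the mineralocorticoid receptor is blocked.

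Dystroglycan links the cell to its surroundings: its alpha subunit lies outside the cell and binds laminin through its sugar chains, and its beta subunit crosses the membrane and binds dystrophin. Both come from the Dag1 precursor, which is cut after translation. The sarcoglycans form a tight subcomplex beside it, with sarcospan, a tetraspan membrane protein, attached. In heart and skeletal muscle the subcomplex includes the alpha, beta and delta sarcoglycans, and in other cells epsilon-sarcoglycan stands in for alpha. Loss of dystrophin destabilises these proteins at the membrane, and inherited loss of single sarcoglycans causes limb-girdle muscular dystrophy, often with cardiomyopathy.

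Sequence upstream of the transcription start is shown for Sgca and Dag1, because they were the members whose treated and untreated arrays did not overlap, in opposite directions. Both come from RefSeq (GRCm38.p6), whose promoter table held 5 of the 6 genes, all but Sgce. The Sgca stretch is chr11:94976328-94976577 on the minus strand and the Dag1 stretch, for the outermost of its 2 listed starts, is chr9:108263959-108264208 on the minus strand. Each is written 5′ to 3′ and ends at the base before the start, with an E-box (CANNTG, the site of myogenic basic helix-loop-helix factors) in capitals in Sgca and GC boxes (GGGCGG, the site of Sp1-type factors) in capitals in Dag1.
Sgca: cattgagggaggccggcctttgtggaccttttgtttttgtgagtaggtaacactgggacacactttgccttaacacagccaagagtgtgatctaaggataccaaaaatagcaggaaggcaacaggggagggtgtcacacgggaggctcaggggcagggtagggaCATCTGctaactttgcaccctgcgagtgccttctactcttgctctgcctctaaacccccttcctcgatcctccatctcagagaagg
Dag1: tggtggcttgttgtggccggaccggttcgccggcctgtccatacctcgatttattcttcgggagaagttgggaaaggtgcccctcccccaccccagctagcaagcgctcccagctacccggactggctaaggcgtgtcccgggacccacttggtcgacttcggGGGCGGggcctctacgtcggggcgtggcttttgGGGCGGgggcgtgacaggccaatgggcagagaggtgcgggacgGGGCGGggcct

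The Sgca stretch held 1 E-box, beginning 86 bases before the start, and 0 GC boxes. The Dag1 stretch held 3 GC boxes, beginning 87, 54 and 11 bases before the start, and 1 E-box, left in lower case. Members whose groups overlapped held these motifs too. Sgcd had 2 E-boxes, 1 of them also 86 bases before the start, and 1 GC box. Sgcb had 1 GC box, and Sspn had 1 E-box at 1 of its starts. Over 32851 promoter windows of 250 bases, searched on both strands, 66.2% held an E-box and 32.7% a GC box. The AGAACA core that the mineralocorticoid and glucocorticoid receptors bind was present in 16.1% of those windows and in 0 of the 7 windows of the 5 members found. These letters describe the windows and say nothing on binding.

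Among the sarcoglycans the widest difference lay in Sgca, the alpha-sarcoglycan made almost only in heart and skeletal muscle. Its log2 signal was 12.34, 12.40 and 12.52 in the finerenone arrays, against 11.57, 12.06 and 12.00 in the untreated arrays. Every treated value lay above every untreated one, and the untreated spread came mostly from replicate 1, the lowest of the 6. The means were 12.42 ± 0.09 in finerenone hearts, against 11.87 ± 0.27 in untreated ones (SD, n = 3 each), a log2 difference of 0.55 ± 0.15 (SE, 95% interval 0.19 to 0.90), or 1.46-fold if the deposited scale is log2 of signal throughout. The limma fit gave an unadjusted p = 0.00846 and an adjusted p = 0.596 over all 30063 genes, so Sgca did not pass the adjusted threshold of 0.05. Without untreated replicate 1 the difference was 0.39 and without untreated replicate 2 it was 0.64. In a bulk sample, fewer cells of a type and less RNA per cell cannot be told apart, so none of these values tells which of them differed.

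**Figure D1:**
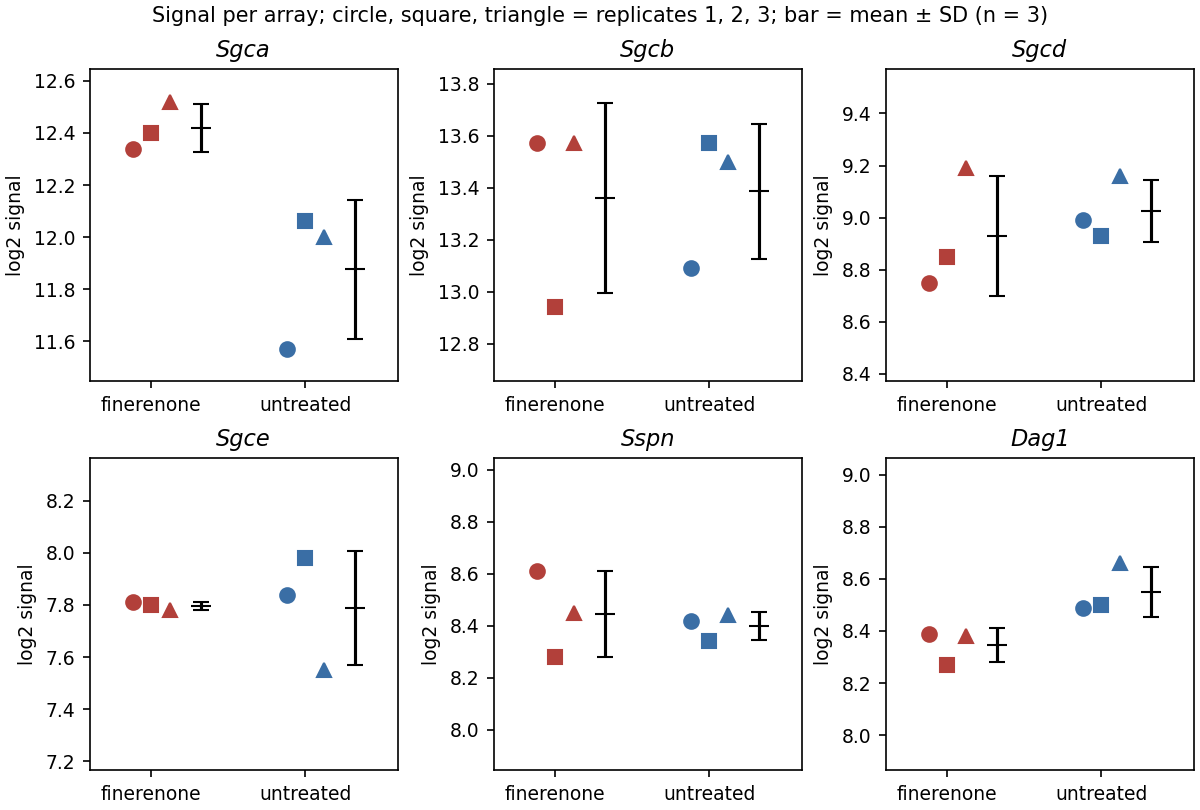
Log2 signal (vertical axes, each spanning the same number of log2 units) of the 6 genes in each array, finerenone left and untreated right; symbols mark replicates and black bars the mean ± SD (n = 3). The treated Sgca values, 12.34 to 12.52, lie above the untreated ones, 11.57 to 12.06, the treated Dag1 values lie below the untreated ones, and the groups overlap for the other 4 genes.

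Sgcb and Sgcd encode beta- and delta-sarcoglycan, which assemble first and form the core on which the other sarcoglycans depend. Sgcb measured 13.57, 12.94 and 13.57 in treated hearts, against 13.09, 13.57 and 13.50 in untreated hearts. Each group thus held 1 low array, finerenone replicate 2 and untreated replicate 1, and the groups overlapped. The difference was -0.03 ± 0.21 (SE, 95% interval -0.54 to 0.49, limma adjusted p = 0.991), a wider interval than that of Sgca. Its sign turned to 0.18 without finerenone replicate 2, to 0.06 without untreated replicate 2 and to 0.03 without untreated replicate 3, and it was -0.18 without untreated replicate 1.

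Sgcd measured 8.75, 8.85 and 9.19 in treated hearts, against 8.99, 8.93 and 9.16 in untreated hearts. Replicate 3 was the highest array of each group, and the groups overlapped. The difference was -0.09 ± 0.14 (SE, 95% interval -0.43 to 0.24, limma adjusted p = 0.903). Without finerenone replicate 1 it was -0.005 and without finerenone replicate 3 it was -0.23.

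Sgce, the epsilon-sarcoglycan that is the close relative of alpha and is made in many tissues, showed no such separation. It measured 7.81, 7.80 and 7.78 in treated hearts, against 7.84, 7.98 and 7.55 in untreated hearts. The treated arrays lay within 0.02 of each other and inside the untreated range of 0.43. The difference was 0.01 ± 0.12 (SE, 95% interval -0.29 to 0.30, limma adjusted p = 0.998). This interval overlaps that of Sgca, 0.19 to 0.90, and the contrast between these genes was not tested. Without untreated replicate 3 the Sgce difference was -0.11 and without untreated replicate 2 it was 0.10.

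Sspn, sarcospan, measured 8.61, 8.28 and 8.45 in treated hearts, against 8.42, 8.34 and 8.44 in untreated hearts. Treated arrays lay on both sides of the untreated ones. The difference was 0.05 ± 0.10 (SE, 95% interval -0.20 to 0.30, limma adjusted p = 0.943), and it was -0.03 without finerenone replicate 1 and 0.13 without finerenone replicate 2.

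Dag1, the dystroglycan precursor gene, measured 8.39, 8.27 and 8.38 in treated hearts, against 8.49, 8.50 and 8.66 in untreated hearts. All treated values lay below all untreated values, though the gap between the nearest arrays was smaller than the range within either group. The means were 8.34 ± 0.07 in finerenone hearts, against 8.55 ± 0.09 in untreated ones (SD, n = 3 each), a log2 difference of -0.20 ± 0.09 (SE, 95% interval -0.41 to 0.01). The limma fit gave an unadjusted p = 0.0547 and an adjusted p = 0.646, so Dag1 did not pass. The difference stayed between -0.23 and -0.15 with single arrays left out.

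**Figure D2:**
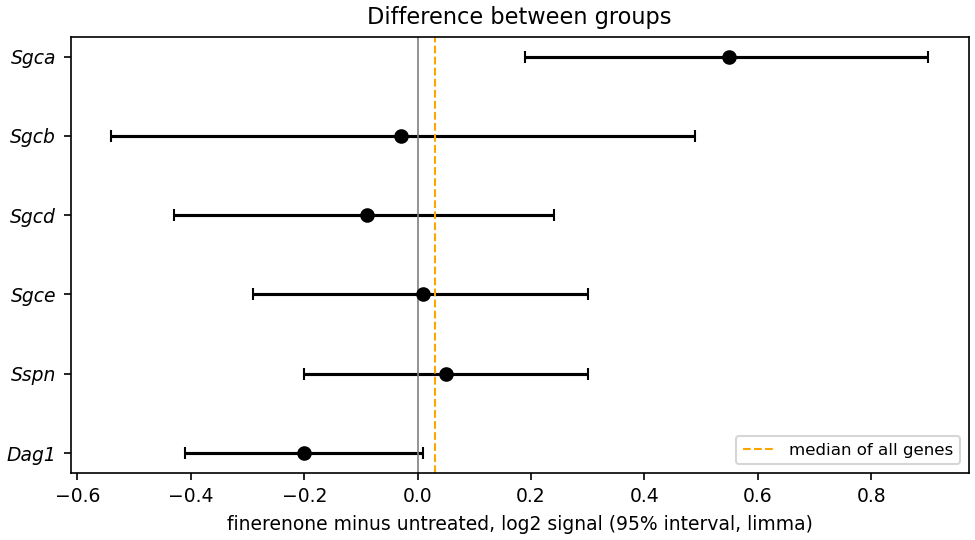
Difference in log2 signal, finerenone minus untreated (horizontal axis), for each gene with its 95% interval from limma; the dashed line is the median of all genes, 0.03. Only the interval of Sgca, 0.19 to 0.90, leaves out 0 before adjustment for the number of genes tested.

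By count, 0 of the 6 genes passed at an adjusted p below 0.05 in limma, as did 0% of all genes tested. At an unadjusted p below 0.05 there was 1 of the 6, Sgca, where 7.8% of all genes reached that level, 5.69% with higher and 2.11% with lower signal in treated hearts. The groups did not overlap for 2 of the 6, Sgca and Dag1, against 12.3% of all genes. Sgca lay on the higher side, as did 8.17% of all genes, and Dag1 on the lower side, as did 4.17%. Of the 6 genes 3 had a positive and 3 a negative difference, with a median of -0.01, beside a median of 0.03 and 58.2% positive differences over all genes. A difference of at least 0.5 in size was found for 1 of the 6 and for 3.7% of all genes. Sgca ranked 354th of 30063 genes by p and Dag1 ranked 2544th.

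The difference in Sgca was also read within each array, against the other members of the same complex except Sspn. No pair was formed with Sspn, so it is not covered by what follows. Sgca minus Sgcb was -1.23, -0.54 and -1.04 in treated hearts, against -1.52, -1.51 and -1.50 in untreated hearts. The 3 untreated values were nearly equal, although both genes were low in untreated replicate 1. Sgca minus Sgce was 4.53, 4.60 and 4.74 in treated hearts, against 3.73, 4.08 and 4.45 in untreated hearts. Sgca minus Dag1 was 3.95, 4.13 and 4.15 in treated hearts, against 3.08, 3.56 and 3.34 in untreated hearts. In each of these pairs, and for Sgca minus Sgcd, the groups did not overlap. For Sgca minus Dag1 this had to follow, since each gene alone separated the groups, in opposite directions. The levels themselves do not rank the genes, because probes differ in brightness. The pairs share Sgca, were chosen with its difference known, and were not tested.

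The Sgca difference is set here beside a trend of the differences with signal level over all genes. Sgca is a bright transcript, and over the 2460 genes with a mean of at least 11 the median difference was 0.14 with 70.5% of them positive, beside 0.03 over all genes. Sgcb, also above 11 in every array, had a difference of -0.03. After quantile normalization of the deposited values the Sgca difference was 0.39, and after cyclic loess 0.41. The part of this level trend in the result was not tested. Set against the 5222 negative control probe sets of the same array, Sgca, Sgcb and Sgcd exceeded at least 95.9% of them in every array. Dag1 exceeded 93.6% to 95.7% of them, Sspn 93.5% to 95.9% and Sgce 88.8% to 93.4%. The last 3 genes thus lay below the top 5% of the negative controls in some arrays, Sgce in all 6.

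Cell type markers were read beside Sgca and Dag1. None of the 76 measured markers passed at an adjusted p below 0.05 in limma. Before adjustment 12 (15.8%) were below 0.05, against 7.8% of all genes, and the groups did not overlap for 12 (15.8%), against 12.3% of all genes. The 10 measured cardiomyocyte genes, led by Tnnt2, Myh6 and Pln, averaged 17.40 ± 0.04 in finerenone hearts, against 17.40 ± 0.13 in untreated ones (SD, n = 3 each), with 7 higher and 3 lower. Abundant cardiomyocyte transcripts match a label of heart muscle. These leading genes are made in atrium and ventricle alike and do not check the chamber, and Tnnt2 at 19.93 sat at the highest value of the table. Over the 6 arrays Tnnt2 ran from 19.92 to 19.93, Myh6 from 19.60 to 19.65 and Pln from 19.46 to 19.48. Genes so near the top of the scale may not show a difference, so equal list means do not establish equal cardiomyocyte content. Whether their signal was saturated was not tested. Untreated replicate 1, lowest for Sgca, was also the lowest cardiomyocyte array, with 17.25 against 17.45 and 17.50 in the other untreated arrays. It was the highest endothelial array too, at 12.44.

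The endothelial and macrophage lists each leaned one way. The endothelial list had 10 of 10 genes with a negative difference, around a median of -0.29, and list means of 11.75 ± 0.11 in finerenone hearts, against 12.10 ± 0.30 in untreated ones (SD, n = 3 each). Its brightest genes were Cdh5, the endothelial cadherin (-0.73), Kdr, a receptor for vascular endothelial growth factor (-0.86 ± 0.27 SE), and Ptprb, a vascular phosphatase (-0.48 ± 0.19 SE). The groups did not overlap for Kdr (limma unadjusted p = 0.016, adjusted p = 0.596). Nor did they overlap for Ptprb (limma unadjusted p = 0.0425, adjusted p = 0.625). The macrophage list had 12 of 12 genes with a positive difference, from 0.00 to 0.75 around a median of 0.32, and list means of 9.14 ± 0.16 in finerenone hearts, against 8.81 ± 0.22 in untreated ones. The brightest were the lysozyme gene Lyz2 (0.75 ± 0.31 SE, limma unadjusted p = 0.0466, adjusted p = 0.628), C1qb of complement (0.50) and the mannose receptor Mrc1 (0.18). With Fcgr1 and Ccr2, 3 macrophage genes were below 0.05 before adjustment.

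Smooth muscle and pericyte genes were lower in 10 of 12 cases, with list means of 9.88 ± 0.11 in finerenone hearts, against 10.06 ± 0.15 in untreated ones. Rgs5 (-0.05) and Abcc9 (-0.31) went with that majority, and so did Pdgfrb, a pericyte receptor, whose groups did not overlap (-0.55 ± 0.16 SE, limma unadjusted p = 0.0105, adjusted p = 0.596). Des, the desmin filament that heart muscle makes as well, went the other way: it was 16.91 ± 0.05 in finerenone hearts, against 16.56 ± 0.11 in untreated ones (SD, n = 3 each), a difference of 0.35 ± 0.09 (SE, limma unadjusted p = 0.00645, adjusted p = 0.596) without overlap, as for Sgca.

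Skeletal muscle genes, the other tissue in which Sgca is abundant, averaged 6.48 ± 0.08 in finerenone hearts, against 6.47 ± 0.15 in untreated ones, with 5 of 12 higher and 7 lower. The brightest were Ckm, the muscle creatine kinase that the heart also makes, at 15.79 ± 0.30 in finerenone hearts, against 15.50 ± 0.55 in untreated ones, the regulatory light chain Mylpf (0.10), and Mybpc2, which binds myosin in fast fibres. Mybpc2 was 6.62 ± 0.05 in finerenone hearts, against 6.15 ± 0.11 in untreated ones, a difference of 0.46 ± 0.09 (SE, limma unadjusted p = 0.00151, adjusted p = 0.596) without overlap. Apart from Ckm, no gene of the list exceeded 6.74 in any array, where the negative controls had array medians of 5.04 to 5.33.

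Fibroblast genes, led by Dcn (0.17), Dpt (0.52) and Gsn (-0.04), were higher in 7 of 9 cases, with list means of 10.96 ± 0.18 in finerenone hearts, against 10.79 ± 0.22 in untreated ones. Adipocyte genes, led by Fabp4 (-0.09), Retn (0.04) and Cidec (0.05), were lower in 4 of 6 cases, at 6.61 ± 0.06 in finerenone hearts, against 6.73 ± 0.15 in untreated ones. The groups did not overlap for 2 of the lower genes, Adipoq (-0.33) and Plin1 (-0.27). Apart from Fabp4, no adipocyte gene exceeded 6.04 in any array, where the negative controls had array medians of 5.04 to 5.33. The list means overlapped between the groups in these 7 lists. They did not for the 5 Schwann cell and nerve genes, led by Cdh19 (0.47), Mbp (0.00) and S100b (0.18), with list means at 5.22 ± 0.03 in finerenone hearts, against 5.07 ± 0.09 in untreated ones, close to the negative controls. The part of cell makeup in the Sgca and Dag1 differences was not tested.

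**Figure D3:**
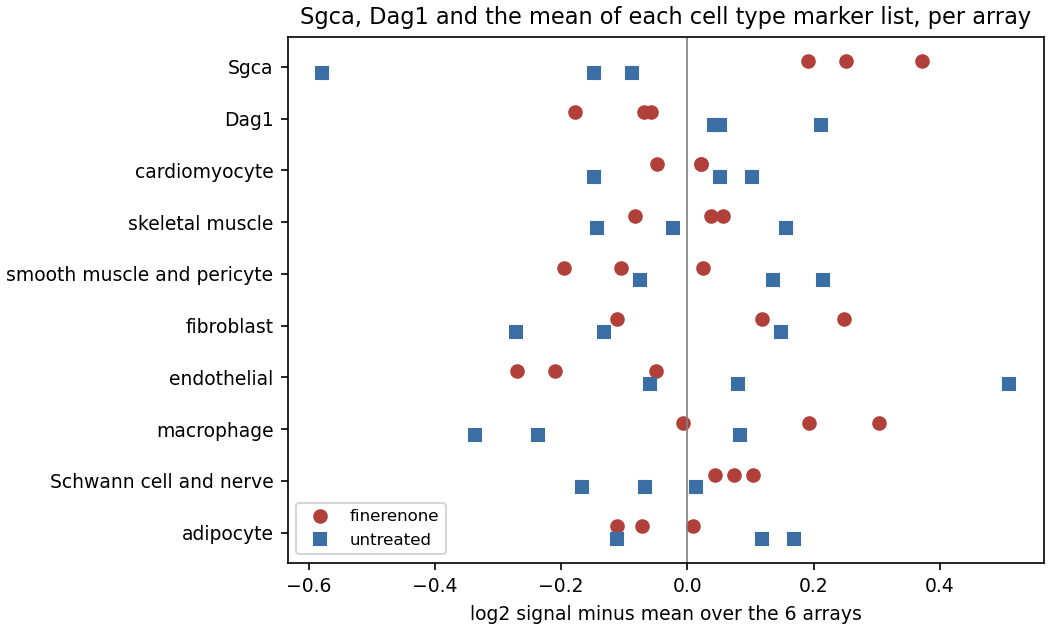
Log2 signal of Sgca and Dag1, and the mean log2 signal of each cell type marker list, in each array after subtracting the mean over the 6 arrays (horizontal axis); finerenone circles lie above untreated squares in each row. The arrays separate by group for Sgca, Dag1 and the Schwann cell and nerve list and overlap for the 7 other lists.

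The partners of these membrane proteins were read from 6 lists of 57 genes. Of these, 44 were measured, 6 shared a cluster with another symbol and 7 were not analysed here. None of the 44 passed at an adjusted p below 0.05 in limma, and 1 (2.27%) did so before adjustment, against 7.8% of all genes. The groups did not overlap for 3 of the 44, Bgn with higher and Utrn and Tln1 with lower values in treated hearts, which is 6.82%, against 12.3% of all genes. Bgn and Tln1 were named after their values were seen.

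On the inner side, where dystrophin or its relative utrophin ties the complex to actin, 4 of 9 genes had a positive and 5 a negative difference, and the median was -0.04. Nos1 (4.84 in finerenone hearts), among the higher genes, lay below the negative control medians of 5.04 to 5.33. Utrn was 9.81, 9.75 and 9.81 in treated hearts, against 10.19, 9.92 and 10.23 in untreated hearts, a difference of -0.32 ± 0.10 (SE, limma unadjusted p = 0.0197, adjusted p = 0.596). It was the single list gene below 0.05 before adjustment. Dmd itself was 9.53, 9.58 and 10.60 in treated hearts, against 10.44, 9.78 and 10.16 in untreated hearts, a difference of -0.22 ± 0.32 that was -0.57 without finerenone replicate 3. Since both groups carry the same alleles, neither gene checks the labels. The list median was 0.05 without untreated replicate 3.

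On the outer side, the 12 measured genes of dystroglycan ligands had a median difference of -0.10, with 3 higher and 9 lower. They include the laminin beta and gamma chains Lamb1, Lamb2 and Lamc1, all among the lower genes. Lama1 (3.85 in finerenone hearts) and Egflam (5.22), also lower, lay near or below the negative control medians of 5.04 to 5.33. Lama2, the alpha chain of the main muscle laminin, was 11.28 ± 0.27 in finerenone hearts, against 11.40 ± 0.11 in untreated ones (SD, n = 3 each). Bgn, biglycan, a small proteoglycan that binds the complex, was 15.09, 15.33 and 15.14 in treated hearts, against 14.97, 15.04 and 14.48 in untreated hearts, a difference of 0.36 ± 0.17 (SE, limma adjusted p = 0.665). The nearest arrays of the groups, 15.09 treated and 15.04 untreated, were close. The ligand median was -0.17 after quantile normalization and -0.03 without finerenone replicate 2.

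The enzymes that build the laminin-binding sugar chain of alpha-dystroglycan gave the narrowest range among the 5 lists with several measured genes. Of 9 measured genes, among them the O-mannosyltransferases Pomt1 and Pomt2 and the kinase Pomk, 6 had a positive and 3 a negative difference, running from -0.14 to 0.11 around a median of 0.03. In each of the 9 the groups overlapped. These were 9 of the 17 genes of the list, and their signal was low. The list mean was 6.06 ± 0.04 in finerenone hearts, against 6.06 ± 0.11 in untreated ones (SD, n = 3 each). The negative controls had array medians of 5.04 to 5.33, and Pomgnt2, Dpm2 and Dpm3 lay near or below these. Signal near background can narrow differences, so the narrow range does not establish steady expression. The 5 matrix proteases and inhibitors, with the gelatinases that cut beta-dystroglycan, ran from -0.35 (Mmp14) to 0.62 (Timp1) with a median of 0.04, and 3 were higher. Mmp9 (4.22 in finerenone hearts), among the lower genes, lay below the negative control medians. Timp1 was 5.73, 5.57 and 7.16 in treated hearts, against 5.33, 5.60 and 5.68 in untreated hearts, so finerenone replicate 3 lay far above the other arrays. That list's median was 0.23 without finerenone replicate 2 and -0.04 without finerenone replicate 3.

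The integrin adhesion system, which links muscle cells to laminin in parallel to dystroglycan, had 3 of 8 genes higher, 5 lower and a median of -0.03. Tln1, talin, was 9.33, 9.38 and 9.28 in treated hearts, against 9.39, 9.50 and 9.58 in untreated hearts, a difference of -0.16 ± 0.08 (SE, limma adjusted p = 0.704). Itga7, the muscle laminin receptor chain, was 8.81 in treated and 8.95 in untreated hearts, with overlap. The remaining sarcoglycan measured, Sgcz (zeta), was 3.56 ± 0.13 in finerenone hearts, against 3.62 ± 0.18 in untreated ones (SD, n = 3 each), below the median of the negative controls in every array.

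**Figure D4:**
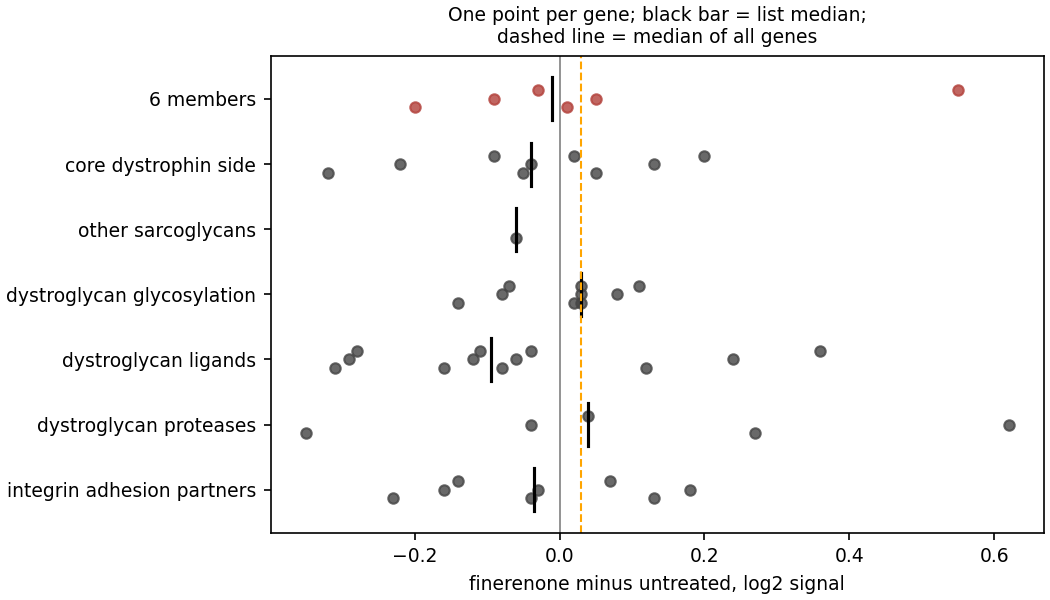
Difference in log2 signal, finerenone minus untreated (horizontal axis), with 1 point per gene for the 6 members and for each list of partner genes; black bars are list medians and the dashed line is the median of all genes. Sgca, at 0.55, lies apart from the other 5 members, which run from -0.20 to 0.05, and list medians run from -0.10 to 0.04.

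The genes whose signal across the 6 arrays was most like that of each member were sought among 11345 other genes with a mean of at least 6. For Sgca these were Gm6374 (Pearson r = 0.990) and Clip3 (r = 0.989), and for Dag1 they were Gon4l (r = 0.995) and Myo18a (r = 0.986). Gm6374 was 12.02, 11.97 and 12.14 in treated hearts, against 11.45, 11.77 and 11.73 in untreated hearts. Like Sgca, it was lowest in untreated replicate 1. For Sgcb the nearest were Kansl3 (r = 0.985) and Gm5778 (r = 0.984), for Sgcd D830024N08Rik (r = 0.990) and Syde2 (r = 0.988), for Sgce Dclre1a (r = 0.993) and Gm17576 (r = 0.984), and for Sspn Twistnb (r = 0.987) and Atp5j (r = 0.975). Among so many genes such values over 6 arrays are common: between 10 (Sgce) and 74 (Sgca) genes exceeded r = 0.95 with a member. None of the 6 members was among the genes nearest to another member.

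**Figure D5:**
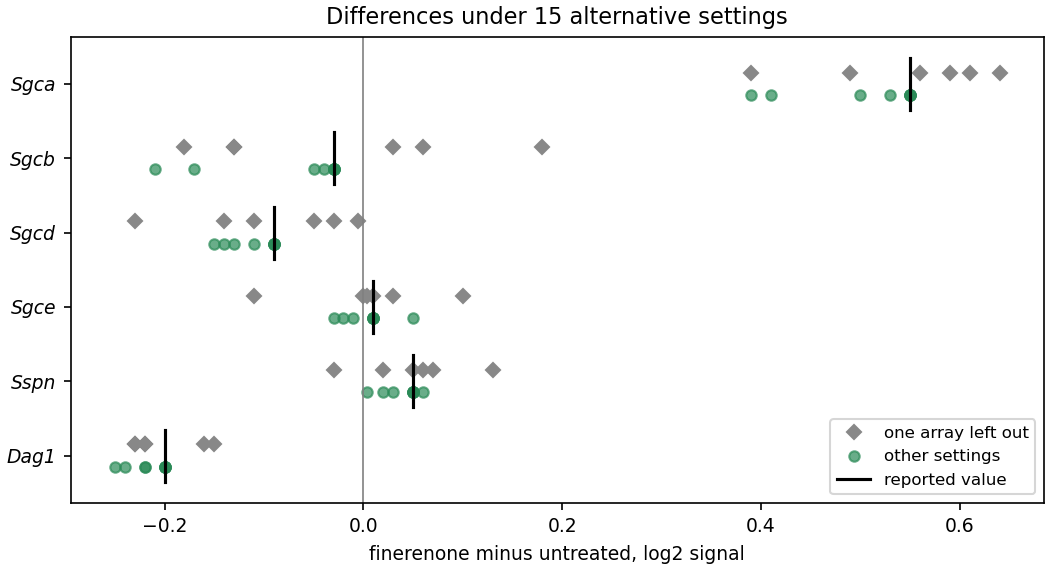
Difference in log2 signal, finerenone minus untreated (horizontal axis), of each gene under 15 other settings: diamonds leave out 1 array, circles change the normalization, filter or fit, and the black line is the reported value. Sgca ran from 0.39 to 0.64 and Dag1 from -0.25 to -0.15, while points of Sgcb, Sgce and Sspn lie on both sides of 0.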

How the data were processed

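The authors deposited log2 signals per probe set, for which the submitters' processing notes name RMA, Affymetrix Expression Console and the Transcriptome Analysis Console. Their versions and the annotation build are not given in the sources consulted. RMA corrects background, equalises array distributions and summarises probes. Values ran from 1.94 to 19.93, a ceiling above that usual for RMA, so a further rescaling may have followed it, and folds hold only for the deposited scale. The array medians over 65956 transcript clusters ran from 4.43 to 4.48. Arrays correlated between 0.989 and 0.994. The precision is limited by 3 arrays per group.

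Clusters with exactly 1 distinct symbol in the platform annotation (30604) were named, with symbols updated by Entrez identifier or synonym through RefSeq (GRCm38.p6), giving 30063 genes. The cluster with the highest mean was used for a gene with several. Groups were compared with limma 3.58.1 in R 4.3.3 (lmFit, eBayes, two-sided, no covariate), adjusted by Benjamini-Hochberg over all genes. The fit was checked on simulated data with differences larger than any reported here, so that check does not show whether differences of the reported size can be found. Python 3.11.15 drew the plots.

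The members and lists were chosen with earlier results of these data known. Named genes were the members, Dmd and Utrn, partner list genes at an unadjusted p below 0.05, the 3 brightest markers of a list, and the 2 genes most like each member. Other genes in the text were named after their values were seen. Replicate numbers did not pair the arrays (correlations of deviations -0.15, 0.06 and 0.06). Lists were described by counts and medians without a test.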

Additional observations from a re-analysis of the deposited data

How the results depend on the processing

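Under 15 alternatives chosen with the design, 0 members passed at an adjusted p below 0.05, and Sgca (0.39 to 0.64, adjusted p 0.41 to 0.87) and Dag1 (-0.25 to -0.15, adjusted p 0.439 to 0.879) kept their direction, as did Sgcd (-0.23 to -0.005). The sign of Sgce turned after quantile normalization (-0.03), median centring (-0.01) and cyclic loess (-0.02). With single arrays left out, Sgcb ran from -0.18 to 0.18, Sgce from -0.11 to 0.10 and Sspn from -0.03 to 0.13. Members at an unadjusted p below 0.05 numbered 2 after quantile normalization, 2 after cyclic loess and 2 with array weights, where Dag1 joined Sgca (1 with every single array left out). The count of partner genes at that level was 3 after quantile normalization and 3 after cyclic loess, and lay between 0 and 4 when each array was left out in turn; the cause was not tested. With the replicate number as a block, Sgca stayed at 0.55 (adjusted p = 0.641), 0 members passed and 1 was below 0.05 unadjusted, and 0 of 6 arrays correlated best with the array of their own number. Leaving out an array leaves 2 in its group. The 3 arrays per group limit what can be seen: the 95% interval of Sgcb ran from -0.54 to 0.49.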
